A study of Homo sapiens with 8 samples.

Results

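Keratins and vimentin are the proteins that assemble into the intermediate filaments of epithelial and mesenchymal cells. The 9 genes examined here were KRT8, KRT18, KRT19, KRT7, KRT23, KRT80, KRT81, KRT86 and VIM, taken by gene symbol from the 38032 gene identifiers in the files. Of these 9 genes, 8 had a row in the files and 4 (KRT8, KRT18, KRT19 and KRT80) reached 10 counts in at least 2 libraries, the filter for testing. KRT23 was not analysed here.

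The RNA came from HepG2, a human line established from a hepatocellular tumour and labelled wild type. The cells were primed for 8 days on flat culture-ware (2D-primed, 4 libraries) or on Alvetex Strata, a porous polystyrene scaffold (3D-primed, 4 libraries), and then freed with trypsin. All cells came from 1 pool grown in 2D beforehand. The methods of the study describe denser seeding on the scaffold than in the 2D wells. Seeding density and substrate therefore cannot be told apart here. The labels number the replicates and do not say whether they were separate cultures, so p-values measure the spread between these libraries, which may be technical.

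A keratin filament is built from obligate pairs of a type I and a type II keratin, so that neither type forms filaments alone. Hepatocytes normally hold only one such pair, the type II keratin 8 and the type I keratin 18, whereas bile duct cells add keratins 7 and 19. Vimentin forms filaments without a keratin partner and is a classical marker of mesenchymal cells.

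All 4 tested members were lower in 3D-primed than in 2D-primed cells, and the ranges of the groups were separate for each. The hepatocyte pair fell by the least, with 2D-primed cells holding 1.66-fold more KRT8 and 1.61-fold more KRT18. KRT19 was 3.19-fold and KRT80 16.7-fold higher in 2D-primed cells. KRT7, KRT81, KRT86 and VIM were counted at 0 to 3 in every library of both groups. Of all 13943 genes tested, 63.9% were called at an adjusted p below 0.05, 31.6% as lower and 32.4% as higher in 3D-primed cells, and the groups did not overlap for 59.8%. A lower value in 3D-primed cells with separate groups was therefore common among all genes. A change at least 2-fold lower that was also called was found for 7.01% of the genes tested, and KRT19 and KRT80 were among them. KRT80 passed the filter through the 2D-primed group, which favours a low value in 3D-primed cells, here and in the ranking that follows. The log2 fold change was lower than that of KRT8 in 11.7% of the genes tested, than that of KRT18 in 12.7%, than that of KRT19 in 2.97% and than that of KRT80 in 0.165%. In bulk RNA, fewer cells expressing a gene and less RNA of it per cell cannot be told apart.

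The libraries held 21599630 to 27844077 counts, and 3 counts, the upper limit that a count of 0 allows, corresponded to 0.108 to 0.139 CPM (counts scaled to library size) before normalisation. Such limits cover counting error only. Levels are given as CPM after TMM normalisation, and log2 fold changes as 3D-primed minus 2D-primed from edgeR's quasi-likelihood test with Benjamini-Hochberg adjustment over all genes tested. All 12 hepatocyte markers listed passed the filter, with summed levels of 72398 to 78463 CPM in 2D-primed against 91823 to 103186 CPM in 3D-primed libraries. ALB had the highest level of the 12 genes in both groups, and its mean rose from 26391 to 44035 CPM with 3D priming. The sum therefore depends heavily on ALB. Of the 12 markers, 7 were higher in 3D-primed cells, 3 (APOB, SERPINA1 and ASGR1) were lower and 2 were not called.

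KRT8 (ENSG00000170421) lies on chromosome 12 of GRCh38, from 52897187 to 52949954, on the minus strand, and encodes the type II member of the hepatocyte pair. Its level was 1052, 1112, 1149 and 1081 CPM in 2D-primed replicates 1 to 4, and 665, 664, 652 and 659 CPM in 3D-primed replicates 1 to 4. Every 2D-primed library was far above the 3D-primed ones, which hardly differed from each other. The means were 1098 ± 41.7 and 660.2 ± 5.96 CPM (SD, n = 4), and the log2 fold change was -0.73 ± 0.0371 (SE; edgeR, adjusted p = 1.3e-07).

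KRT18 (ENSG00000111057), which encodes the type I partner, begins inside the annotated span of KRT8 on the opposite strand, from 52948871 to 52952906. The annotated exons of both genes overlap by 525 bases. The library preparation kept the strand, and whether the counting used it is not given in the sources used here, so that reads from these bases cannot be assigned with certainty. KRT18 was counted at 669, 702, 759.5 and 711 CPM in the 2D-primed and at 438, 443, 429.9 and 448 CPM in the 3D-primed libraries, in replicate order. The 2D-primed libraries were again all above the 3D-primed ones, with replicate 3 the highest of its group as for KRT8. The group means were 710.4 ± 37.3 and 439.9 ± 7.86 CPM (SD, n = 4), and the log2 fold change was -0.69 ± 0.0434 (SE; edgeR, adjusted p = 4.6e-07).

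KRT19 (ENSG00000171345), the type I keratin of bile duct cells and of hepatic progenitors, is encoded on chromosome 17, from 41523617 to 41528308 on the minus strand. Its level was 247, 289, 306 and 286 CPM in the 2D-primed libraries and 99.5, 86.7, 86.6 and 81.4 CPM in the 3D-primed libraries. The lowest 2D-primed library, replicate 1, was still well above the highest 3D-primed one, also a replicate 1. The means of 282 ± 25.1 and 88.5 ± 7.69 CPM (SD, n = 4) gave a log2 fold change of -1.67 (standard error 0.0776, edgeR adjusted p = 8.0e-08).

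KRT80 (ENSG00000167767), a type II keratin of stratified and other epithelia, lies on chromosome 12 from 52168996 to 52192014, on the minus strand. It was counted 82, 110, 152 and 108 times in the 2D-primed libraries, and 5, 5, 9 and 10 times in the 3D-primed libraries. On the CPM scale these counts were 4.81 ± 1.01 and 0.282 ± 0.0954 (SD, n = 4), with separate groups. The log2 fold change was -4.06 (standard error 0.253, edgeR adjusted p = 4.5e-07), the 24th lowest of all genes tested. Only 1 of its 3D-primed libraries reached 10 counts, so that KRT80 entered the test through the 2D-primed group, and its presence among the tested members favours a lower value in 3D-primed cells.

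**Figure D1:**
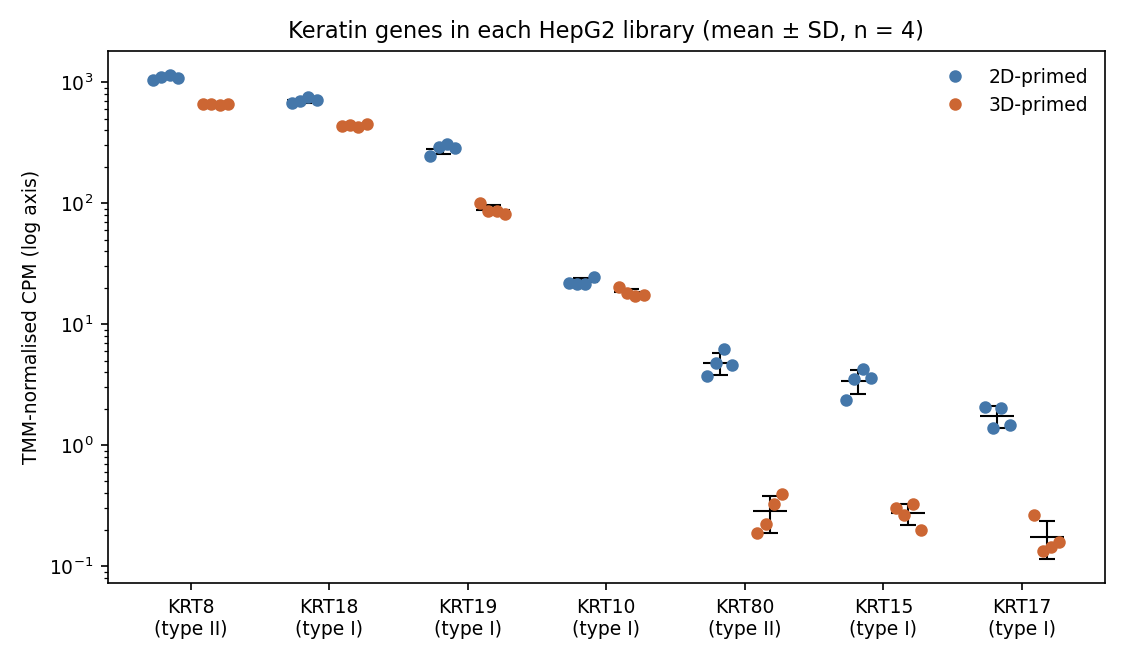
Points show TMM-normalised CPM on a log axis for 7 tested keratin genes, with 2D-primed libraries in blue and 3D-primed libraries in orange, replicates 1 to 4 from left to right, and black marks for the mean ± SD of 4 libraries. The 2D-primed libraries lie above the 3D-primed ones for every gene shown, by 1.23-fold for KRT10 and 16.7-fold for KRT80; KRT37 and KRT39, each with libraries at 0, are left out.

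The spread between libraries differed among the members. For KRT8 the coefficient of variation was 3.79% in 2D-primed but 0.902% in 3D-primed libraries, and for KRT18 it was 5.25% and 1.79%. KRT19 varied by 8.91% and 8.68%, and KRT80, with few counts, by up to 33.8%. Over the fits that left out a library each, the log2 fold change ranged between -0.76 and -0.71 for KRT8, between -0.72 and -0.66 for KRT18, between -1.74 and -1.63 for KRT19 and between -4.26 and -3.91 for KRT80. For each of the 4 genes the exact two-sided permutation test gave p = 0.0286, the smallest that 4 libraries against 4 can give.

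The other 4 members with a row were too low for a test or a fold. KRT7 (ENSG00000135480), the type II partner of KRT19 in bile ducts, was counted 2 times in 2D-primed replicate 2, once each in 3D-primed replicates 1 and 2, and not at all in the other libraries. VIM (ENSG00000026025) was counted once in 2D-primed replicate 1, 3 times in 2D-primed replicate 4 and once in 3D-primed replicate 4. The hair keratin gene KRT81 (ENSG00000205426) had 2 counts in 2D-primed replicate 3 and no other count, and its near-identical neighbour KRT86 (ENSG00000170442) had none. None of these genes therefore rose above the limit that a count of 0 allows in either group, and a difference between the groups was not detectable at this depth. Summing the hair keratins KRT81, KRT83, KRT85 and KRT86 gave at most 2 counts in a library. A further 3055 identifiers in the files, with 2.48% of all counts, are not in the annotation, and reads assigned to them were not attributed to a gene.

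Per kilobase of the longest protein-coding transcript, KRT8 and KRT18 were close in both groups. KRT8 stood at 450.8 ± 17.1 and KRT18 at 419 ± 22.0 CPM per kb in 2D-primed cells, and in 3D-primed cells at 271 ± 2.44 and 259 ± 4.64 CPM per kb (SD, n = 4). KRT19 followed at 203 ± 18.1 and 63.7 ± 5.53 CPM per kb, and KRT80 at 1.24 ± 0.260 and 0.0725 ± 0.0245 CPM per kb. The order KRT8, KRT18, KRT19, KRT80 was the same in both groups. The ranges of KRT8 and KRT18 overlapped in 2D-primed cells, at 432 to 472 and 395 to 448 CPM per kb. They were apart in 3D-primed cells, at 268 to 273 and 253 to 264 CPM per kb, where the libraries differed less from each other. Within every library KRT8 was above KRT18 with this length, by 1.05- to 1.10-fold in 2D-primed and 1.02- to 1.06-fold in 3D-primed libraries. The order of these neighbours depends on the transcript length used, because with the union of annotated exons as length KRT8 stood below KRT18 in both groups.

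To compare the hepatocyte pair with the other keratins inside each library, 10 ratios of counts per kb were listed, of which 3 could be computed, because the other 7 needed a member at or under 3 counts or one not analysed. The ratio of KRT8 to KRT18 was 1.09, 1.10, 1.05 and 1.06 in the 2D-primed libraries and 1.06, 1.04, 1.06 and 1.02 in the 3D-primed libraries. The groups overlapped, and the difference of -0.04 on the log2 scale did not pass the exact two-sided permutation test (p = 0.086, also 0.086 after Benjamini-Hochberg adjustment over the 3 ratios). Without 2D-primed replicate 3 the difference was -0.05 and the groups no longer overlapped (exact p = 0.0286). Leaving out any library in turn gave differences of -0.05 to -0.03.

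The ratio of KRT19 to KRT18, both type I, was 0.450, 0.502, 0.492 and 0.491 in the 2D-primed and 0.277, 0.239, 0.246 and 0.222 in the 3D-primed libraries. Every 3D-primed library lay below every 2D-primed one, and the log2 difference was -0.98 (exact two-sided permutation test, p = 0.0286, adjusted p = 0.043 over the 3 ratios). KRT19 thus fell 1.97-fold further than KRT18 in the same libraries. The ratio of KRT80 to KRT8, both type II, had a log2 difference of -3.40 with separate groups (exact two-sided permutation test, p = 0.0286, adjusted p = 0.043), a direction that the entry of KRT80 through the 2D-primed group favours. Both ratios shared the smallest p possible, so the adjusted p of KRT19 to KRT18 depends on the ratio with KRT80. Without that ratio the adjustment would be larger. KRT19 to KRT8 and KRT80 to KRT19, a pair of ratios chosen after the members' values were seen, had log2 differences of -0.94 and -2.46, with separate groups in each.

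**Figure D2:**
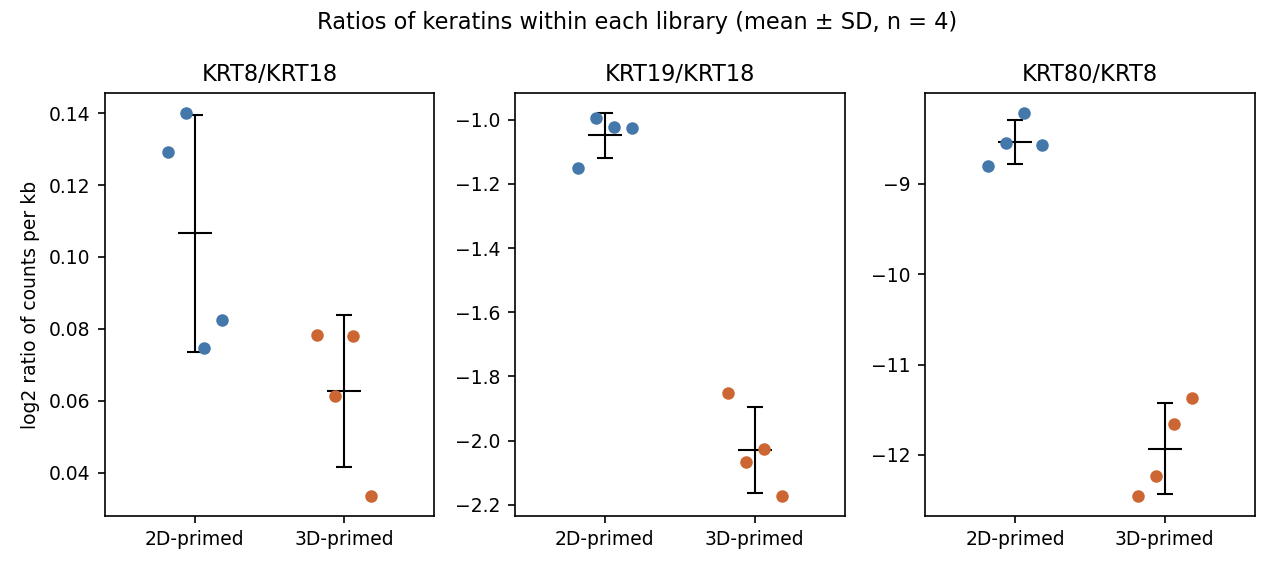
Each panel shows the log2 ratio of counts per kb of a pair of keratins in each library, with blue points for 2D-primed and orange points for 3D-primed libraries, replicates 1 to 4 from left to right, and black marks for the mean ± SD (n = 4); the panels have different scales, none of which starts at 0. KRT8/KRT18 overlaps between the groups (log2 difference -0.04), whereas KRT19/KRT18 and KRT80/KRT8 are lower in all 3D-primed libraries (-0.98 and -3.40).

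Summed per kb over the members, type II keratins stood to type I keratins at 0.728 ± 0.0224 in the 2D-primed and 0.839 ± 0.00879 in the 3D-primed group (SD, n = 4), with the longest protein-coding transcript as length. The groups did not overlap, at 0.708 to 0.756 and 0.827 to 0.848. The level of this ratio depends on the length chosen. It was 0.457 and 0.530 with the union of exons, and 0.875 and 0.987 with the MANE Select transcript, a length added after the data were seen, and the groups were apart with each. KRT8, KRT18 and KRT19 made up nearly all of the sums, so the difference between the groups largely restates the lower KRT19. The values are ratios of RNA, not of protein.

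As a share of the counts per kb of all 9 tested keratins, KRT19 made up 17.5, 19.0, 19.1 and 19.0% in the 2D-primed and 11.7, 10.3, 10.5 and 9.74% in the 3D-primed libraries. KRT18 rose in share from 38.5 ± 0.430 to 43.0 ± 0.724% and KRT8 from 41.5 ± 0.751 to 44.9 ± 0.293% (SD, n = 4), while the levels of both fell. The pair together with KRT19 held nearly all keratin RNA in every library. Shares within a library add up to a fixed total, so that a lower share of one gene raises those of the others.

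**Figure D3:**
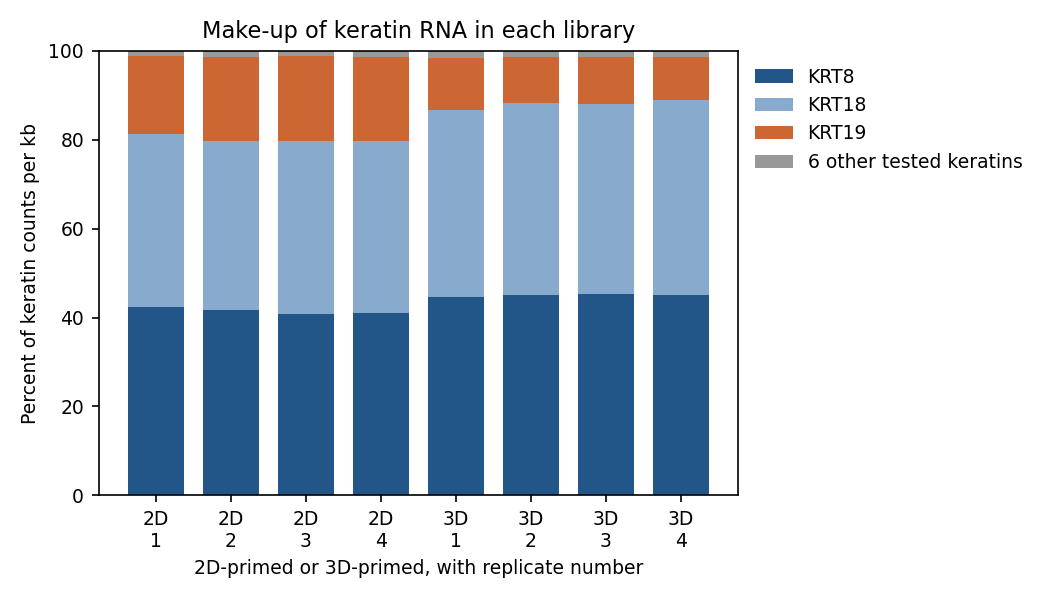
Stacked bars give the percent of keratin counts per kb held by KRT8, KRT18, KRT19 and the 6 other tested keratins in each of the 8 libraries, grouped as 2D-primed and 3D-primed with replicate numbers 1 to 4. The KRT19 part spans 17.5 to 19.1% in 2D-primed and 9.74 to 11.7% in 3D-primed libraries.

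The files list 53 protein-coding keratin genes, of which 36 had no count in any library, 8 had counts below the filter and 9 were tested. The 5 tested keratins outside the chosen 9 genes are all type I and all lie on chromosome 17. KRT10, known from differentiating epidermis, was at 22.4 ± 1.53 CPM in 2D-primed against 18.3 ± 1.41 CPM in 3D-primed cells (SD, n = 4), which is -0.29 on the log2 scale (edgeR, adjusted p = 0.0038). Its groups were separate, at 21.3 to 24.7 and 17.2 to 20.3 CPM.

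KRT15, a keratin of basal and stem cells in stratified epithelia, and KRT17, induced in injured epidermis, were counted far less. KRT15 had 51, 81, 104 and 85 counts in the 2D-primed and 8, 6, 9 and 5 counts in the 3D-primed libraries (log2 fold change -3.62 with a standard error of 0.252, edgeR adjusted p = 9.0e-07). KRT17 had 45, 32, 50 and 35 counts against 7, 3, 4 and 4 (log2 fold change -3.27 with a standard error of 0.296, edgeR adjusted p = 5.3e-06). Both genes were higher in every 2D-primed library than in any 3D-primed one, and both passed the filter through the 2D-primed group alone.

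Hair keratin genes KRT37 and KRT39 were called on the counts of few libraries. KRT37 had 0, 11, 20 and 7 counts in the 2D-primed libraries and 1 count in 3D-primed replicate 4 (log2 fold change -4.77 with a standard error of 1.23, edgeR adjusted p = 0.0062). Its groups overlapped (exact two-sided permutation test, p = 0.14). KRT39 was counted 39 times in 2D-primed replicate 2, 22 times in replicate 3 and in no other library, so that its fitted fold is no bound (edgeR adjusted p = 0.033; exact two-sided permutation test, p = 0.43). Its call was lost in edgeR without 3D-primed replicate 1 or 2 (adjusted p = 0.055 and 0.053), in DESeq2 (adjusted p = 0.086) and in limma-voom (adjusted p = 0.13). Without 2D-primed replicate 2 or 3, neither KRT37 nor KRT39 reached the filter, so that neither was tested.

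Keratin genes have many near-identical copies, and Salmon has to divide reads that several genes could give. KRT19 and KRT17 are separate genes and not such copies. Only their nearest stretch is printed here, to show how close related keratins can come. In GENCODE 44, words of 31 bases found in no other gene made up 38.9% of the KRT8 transcript, 25.2% of KRT18, 88.6% of KRT19 and 98.5% of KRT80 (MANE Select transcripts). The same share was 98.3% for KRT10, 94.6% for KRT15 and 60.2% for KRT17. The 51 KRT8 pseudogenes with a row held 26 to 56 counts per library in all, and the 66 of KRT18 held 6 to 14. Summing each gene with its pseudogenes before the fit kept both calls and their direction.

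The transcribed KRT8 pseudogene KRT8P12 (ENSG00000229320) on chromosome 3, named after its values were seen, was counted 19, 19, 21 and 20 times in the 2D-primed and 34, 26, 43 and 38 times in the 3D-primed libraries. It went against KRT8, being higher in every 3D-primed library (log2 fold change 0.69 with a standard error of 0.187, edgeR adjusted p = 0.0079). KRT8 itself had 15007 to 28239 counts per library.

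Between KRT19 and KRT17 the nearest windows of 60 coding bases differ at 2 bases, shown in capitals. Both are in exon 1 and on the minus strand of chromosome 17, from 41527942 to 41528001 (coding bases 247 to 306 of KRT19) and from 41624192 to 41624251 (coding bases 259 to 318 of KRT17). The nearest windows of KRT19 and KRT15 differ at 3 bases.
KRT19: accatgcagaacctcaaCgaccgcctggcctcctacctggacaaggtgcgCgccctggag
KRT17: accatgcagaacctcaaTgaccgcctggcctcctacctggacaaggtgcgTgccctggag

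KRT80 was nearly unique, and 0.911% of its 31-base words were also in KRT8. The part of such shared reads in the 5 to 10 counts of KRT80 in 3D-primed libraries was not tested.

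The genes beside the keratins changed in both directions, as did the genes tested as a whole. Of all genes tested, 31.6% were called lower and 32.4% higher in 3D-primed cells, 63.9% together. Within 200 kb of KRT8 and KRT18, 5 other genes were tested, with a median log2 fold change of -0.12. SPRYD3 (-0.59) and IGFBP6 (-1.14) were lower, EIF4B (0.13) and SOAT2 (0.58) were higher in 3D-primed cells, and TNS2 was not called (edgeR adjusted p = 4.0e-06, 2.2e-05, 0.010, 5.9e-06 and 0.13). Within 200 kb of KRT15, KRT19 and KRT17, 6 other genes were tested, with a median of -0.13. JUP (-0.54) and FKBP10 (-0.33) were lower, GAST (4.18) was higher and EIF1, HAP1 and P3H4 were not called. GAST had a mean of 0.065 CPM in 2D-primed cells, under the limit that a count of 0 allows, and 1.25 CPM in 3D-primed cells. It passed the filter through the 3D-primed group alone, which favours a higher value there, and its fold is uncertain. The genes beside the keratins were named after their values were seen.

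Across the 8 libraries, after the group means were removed, the genes of mean 10 CPM or more whose log2 CPM followed KRT8 most closely were UFSP2 (Pearson r = 0.97), MKKS (0.97) and FLII (0.97). KRT18 ranked 40th of 8723 genes (r = 0.89) and KRT19 337th (r = 0.73). These correlations describe 8 libraries that share depth and preparation between all genes. VIM was too low for such a ranking.

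Filaments are tied to the cell surface and to each other by plakin cytolinkers and desmosomal proteins, and of 15 such genes listed 14 were tested. Of these, 13 were lower in 3D-primed cells, none was higher and 1 was not called, with a median log2 fold change of -0.82, beside 0.013 over all genes tested. Periplakin (PPL), which binds intermediate filaments at the cell periphery, went from 78.3 ± 5.59 to 16.8 ± 2.63 CPM (log2 fold change -2.22, edgeR adjusted p = 6.3e-08). Plectin (PLEC), which links keratin filaments to hemidesmosomes and to actin, went from 237 ± 18.7 to 90.1 ± 8.30 CPM (-1.40, edgeR adjusted p = 1.8e-07). Desmoplakin (DSP), which anchors keratins at desmosomes, went from 2257 ± 209 to 690.1 ± 87.2 CPM (-1.71, edgeR adjusted p = 1.9e-07). All 13 genes that were lower had separate groups. Over all genes tested, 31.6% were called lower and 32.4% higher, and 59.8% had separate groups. The same shares stand beside the counts of the lists that follow. The remaining gene, envoplakin (EVPL), stood at 0.15 as log2 fold change (edgeR's adjusted p = 0.091), and passed the threshold with upper-quartile scaling (adjusted p = 0.035) or without 3D-primed replicate 1 (adjusted p = 0.028).

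**Figure D4:**
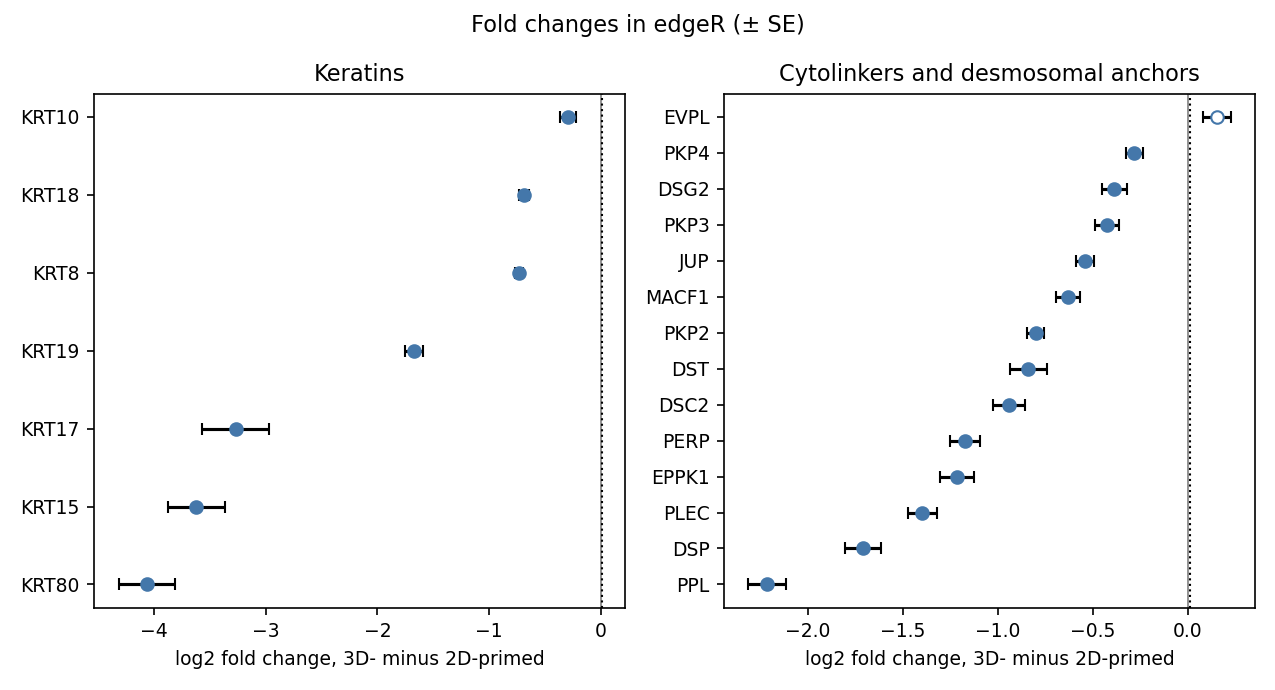
Log2 fold changes (3D-primed minus 2D-primed, edgeR) with standard errors as bars are shown for 7 tested keratins on the left and for 14 tested cytolinkers and desmosomal anchors on the right; filled points were called, the dotted line is the median of all genes tested (0.013), and KRT37 and KRT39 are left out because of libraries at 0. KRT80 lies farthest to the left at -4.06 and KRT10 nearest to 0 at -0.29, while EVPL is the only anchor right of 0.

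Of 24 genes for proteins that bind keratins or regulate filaments, all were tested, 14 were lower, 6 were higher and 4 were not called in 3D-primed cells (median log2 fold change -0.15). The small heat shock protein gene HSPB1 (-1.32), the 14-3-3 gene YWHAZ (-0.53), whose family binds phosphorylated KRT18, and epiplakin (EPPK1, -1.22), which is also in the previous list, had the smallest p (edgeR adjusted p = 9.0e-07, 9.6e-07 and 1.1e-06). CRYAB, a chaperone of filament proteins, had the lowest fold change (-2.68, edgeR adjusted p = 6.6e-06) and the chaperone gene HSPA8 the highest (0.59, edgeR adjusted p = 3.1e-05), both named after their values were seen. CRYAB had 34 to 55 counts in 2D-primed but 6 to 9 in 3D-primed libraries, and so passed the filter through the 2D-primed group alone. With total-count or upper-quartile scaling 11 genes of the list were called lower in place of 14, YWHAE, YWHAQ and CDK1 being those lost.

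Among 13 other genes of non-lamin intermediate filaments, 8 were below the filter, desmin (DES) and the neurofilament genes among them. Of the 5 tested, NES and IFFO2 were lower and SYNM, BFSP1 and IFFO1 were not called. Nestin (NES), a filament protein of progenitor cells, went from 25.5 ± 1.75 to 10.4 ± 1.72 CPM (log2 fold change -1.30, edgeR adjusted p = 3.2e-06), and IFFO2 from 65.4 ± 3.14 to 42.2 ± 1.62 CPM (-0.63, edgeR adjusted p = 1.3e-06). Synemin (SYNM) stood at -0.20 as log2 fold change (edgeR's adjusted p = 0.099), which was -0.28 and past the threshold without 2D-primed replicate 4 (adjusted p = 0.019).

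Since KRT7 and KRT19 mark bile duct cells, the other biliary markers are given beside them. Of 22 listed, 16 were tested, 11 were lower (median log2 fold change of all tested -0.53), 2 were higher (PROM1 and ONECUT2) and 3 were not called (ONECUT1, GGT1 and NOTCH2) in 3D-primed cells. CD24 (-1.94), a surface protein of progenitor and ductal cells, and the Notch ligand gene JAG1 (-1.83) were among the genes with the smallest p (edgeR adjusted p = 4.3e-08 and 2.8e-07). SOX9, a factor of ductal cells, fell by 0.74 (log2, edgeR's adjusted p = 2.3e-06). ONECUT2 rose by 1.08 and PROM1 by 0.26 (log2, edgeR adjusted p = 4.0e-06 and 0.0080). SOX9, ONECUT2 and PROM1 were named after their values were seen. The summed level of the list ran from 1648 to 1759 CPM in 2D-primed against 1029 to 1133 CPM in 3D-primed libraries. The duct markers CFTR, AQP1, SCTR and CLDN7 had at most 1 count and MUC1 at most 3 in any library. The part of any mixture of cell states in the KRT19 values was not tested.

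The hepatocyte markers had a median log2 fold change of 0.21, with 7 of 12 higher, 3 lower (APOB, SERPINA1 and ASGR1) and 2 not called (AHSG and CPS1). The groups of APOB and SERPINA1 overlapped, and SERPINA1 lost its call without a filter on low counts (edgeR adjusted p = 0.13). ALB (0.74), APOH (0.69) and TTR (0.81) had the smallest p (edgeR adjusted p = 1.9e-06, 4.2e-06 and 1.2e-06). KRT8 and KRT18, the keratins of hepatocytes, moved in the direction opposite to the 7 higher genes. They moved in the same direction as APOB, SERPINA1 and ASGR1.

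Of 19 mesenchymal markers other than VIM, 11 were tested, 8 were lower, 2 were higher (SNAI2 and PDGFRB) and 1, ACTA2, was not called (median log2 fold change -0.67). SNAI2 had 1, 1, 1 and 8 counts against 10, 11, 5 and 18, with overlapping groups (edgeR adjusted p = 0.040), and lost its call without any of 2D-primed replicates 1 to 3 or 3D-primed replicates 1, 2 and 4 (adjusted p = 0.058 to 0.11). S100A4 (-2.62), TAGLN (-2.35) and ZEB1 (-0.69) had the smallest p (edgeR adjusted p = 2.0e-06, 3.7e-07 and 5.4e-06). COL1A1, also called lower and named after its values were seen, had 16 to 28 counts in 2D-primed but 0 to 3 in 3D-primed libraries. It passed the filter through the 2D-primed group alone. The summed level of the whole list ran from 14947 to 17410 CPM in 2D-primed against 9675 to 11703 CPM in 3D-primed libraries. Nearly all of it was FN1. Without FN1 the sum ran from 315 to 341 against 219.8 to 232 CPM, while VIM had no more than 3 counts. Whether the RNA of FN1 or of the other listed genes marks a mesenchymal state in HepG2 was not tested. Of 17 epithelial markers other than keratins, 10 were tested, with a median log2 fold change of -0.33. Of these, 6 were lower, 2 were higher (CLDN3 and OCLN) and 2 were not called (CDH1 and ST14). EPCAM and CLDN4, both lower and named after their values were seen, are also in the biliary list, as is CLDN7. The counts of both lists are therefore not independent. The members called against a list's direction or not called were named after their values were seen. The protease inhibitor gene SPINT1 (-2.83), the epithelial transcription factor gene ELF3 (-2.39) and the splicing factor gene ESRP2 (-0.53) had the smallest p (edgeR adjusted p = 1.0e-07, 6.6e-07 and 2.0e-06).

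**Figure D5:**
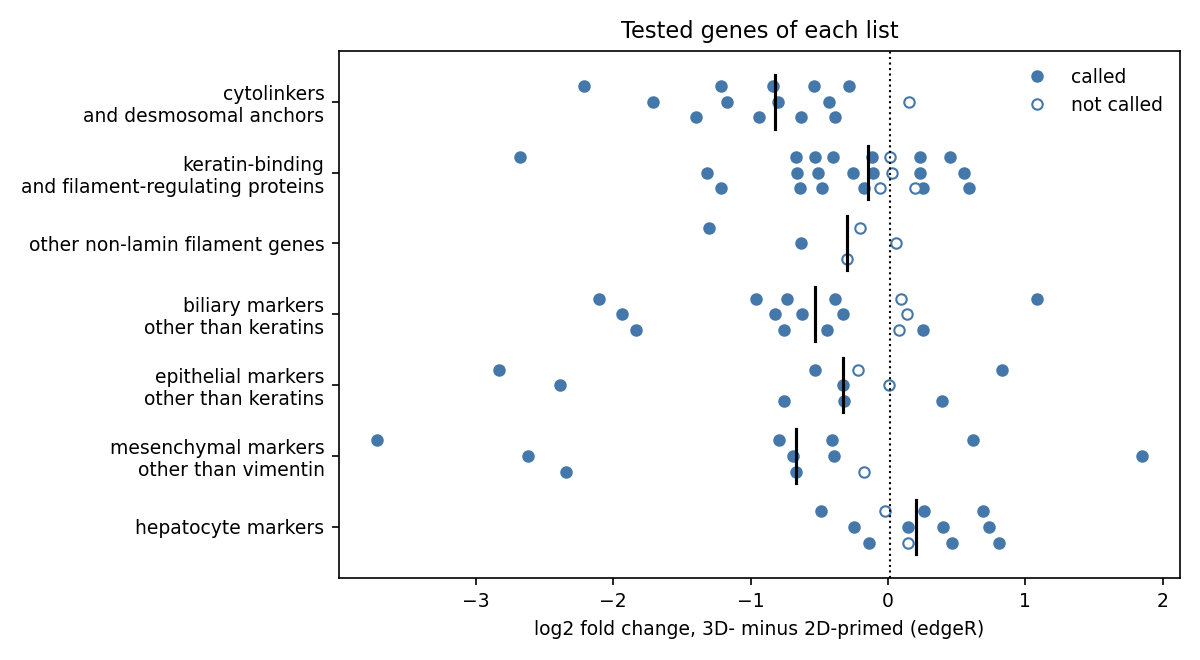
Each point is the log2 fold change of a tested gene (3D-primed minus 2D-primed, edgeR) in 7 gene lists, filled where called, with a black bar at the median of the list and a dotted line at the median of all genes tested (0.013). The anchors (median -0.82) and the mesenchymal markers (-0.67) lie lowest, and the hepatocyte markers (0.21) are the list with a median above 0.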

How the data were processed

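RNA from 8 HepG2 libraries, 4 2D-primed and 4 3D-primed, was analysed. The authors deposited estimated counts per gene, made with Salmon (named in the submitters' processing notes) on human cDNA and summed with tximport, as whole numbers not scaled to depth. The tximport setting for transcript length is not given in the sources used here. Symbols, positions and lengths came from GENCODE 44 (GRCh38), matched by identifier.

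Genes that reached 10 counts in 2 or more libraries were tested with edgeR 4.0.16 (TMM, glmQLFit, glmQLFTest, R 4.3.3), with Benjamini-Hochberg adjustment and a threshold of 0.05. The study itself used DESeq2, which is an alternative here. The standard error was the size of the log2 fold change divided by the square root of F. Ratios per kb and levels of single genes were compared by exact two-sided permutation tests over libraries (Python 3.11.15, scipy 1.17.1, pandas 2.3.3). The scripts were tested on simulated data.

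Groups came from the labels. The members and gene lists were chosen with earlier results of these data known. The named genes are the members, the other tested keratins, the 3 genes of smallest p in each list and the 3 genes whose log2 CPM was most like KRT8 by Pearson r, plus those said to be named after their values were seen. A few genes and sequences are not reported here; all tests and counts include them. Libraries of a group differed by more than counting noise (chi-square per degree of freedom 6.34 to 17.4), and the common biological coefficient of variation was 0.0934.

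Alternatives were DESeq2 1.42.0, limma-voom (limma 3.58.1), median-of-ratios, total-count and upper-quartile scaling, filterByExpr, no filter, a minimum of 10 counts in every library, fits without each library, a replicate block, genes summed with pseudogenes, and other gene lengths.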

Additional observations from a re-analysis of the deposited data

Results flagged for a closer look

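In groups of 4 libraries, 105 sets of values were checked for a library far from the others of its group, and 7 were flagged, where chance gives about 1 in 20. KRT37 was at 0.0397 CPM in 3D-primed replicate 4, which is a single count, and at 0 in the other 3D-primed libraries. NES was at 28.1 CPM in 2D-primed replicate 3 and at 24.5 to 24.7 CPM in the others. JAG1 was at 280 CPM in 2D-primed replicate 1, below the 335 to 342 CPM of the others. In the same library TTR was at 274 CPM and the remaining ones lay between 306 and 308 CPM. IGFBP6, a neighbour of KRT8, was at 8.95 CPM in 2D-primed replicate 3, while the rest lay between 7.61 and 7.72 CPM. FKBP10, a neighbour of KRT17, was at 205 CPM in 3D-primed replicate 1, while the rest lay between 178 and 181 CPM. SNAI2 was at 0.338 CPM in 2D-primed replicate 4, with 0.0407 to 0.0458 CPM, a single count each, in the remaining 2D-primed libraries. No library of KRT8, KRT18, KRT19 or KRT80 stood apart in this way.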

How the results depend on the processing

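The count of genes called, 8916, ran from 8357 to 9070 over the alternatives. KRT8, KRT18, KRT19 and KRT80 kept their direction and their call under every alternative that could test them, and KRT80 was not tested where 10 counts were required in all 8 libraries. The type II to type I ratio moved with the length used, to 0.457 in the 2D-primed and 0.530 in the 3D-primed group with the union of exons, and to 0.875 and 0.987 with the MANE Select transcript. Leaving out any library in turn, the log2 difference of KRT8/KRT18 ran from -0.0545 to -0.0326. The sum of KRT81, KRT83, KRT85 and KRT86 stayed under the filter and could give no value. Over the alternatives, the calls of the lists ran from 11 to 14 lower for keratin-binding proteins, 10 to 11 lower and 2 to 3 higher for biliary, 7 to 8 higher and 2 to 3 lower for hepatocyte, 7 to 8 lower and 1 to 2 higher for mesenchymal, and 6 to 7 lower for epithelial markers, while 13 anchors were lower under each. KRT37 and KRT39 were also left untested by filterByExpr and by 10 counts in all 8 libraries. With the replicate block SERPINA1 lost its call (adjusted p = 0.057).

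Same-numbered libraries did not deviate together (r = -0.044, -0.024, 0.036 and 0.014), so the numbers were not taken to pair them. With a replicate block, 8490 genes were called. In the sign-flip test of 4 same-numbered pairs, which cannot go below an exact p of 0.125, the log2 differences of -0.98 (KRT19/KRT18), -3.40 (KRT80/KRT8), -0.94 (KRT19/KRT8) and -2.46 (KRT80/KRT19) had that p. Low counts limit KRT80, KRT15, KRT17, KRT37, KRT39, KRT8P12, CRYAB, SNAI2, GAST and COL1A1, and allow no statement on a difference in KRT7, KRT81, KRT86 or VIM.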
